A study of Mus with 6 samples.

Results

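A set of 10 receptor genes through which helper T cells sense IL-6, IL-12, IL-10, IL-18, IL-27, the interferons and TGF-β were examined in activated CD4+ T cells with and without neutralization of VEGF-B. They were chosen by name, as Il6st, Il12rb1, Il12rb2, Il27ra, Il10ra, Ifnar1, Ifngr1, Ifngr2, Il18r1 and Tgfbr2, and all 10 were among the 10995 protein-coding genes of the table. Wild-type CD4+ T cells from mouse spleen, naive at the start, were stimulated for 3 days with anti-CD3 (5 μg/mL), anti-CD28 (2 μg/mL) and IL-2 (100 U/mL). The culture also held either anti–VEGF-B (labelled aVEGFB, 1 μg/mL) or normal goat IgG as control (1 μg/mL), with 3 libraries for each. The labels give no age and do not say whether the 3 libraries came from separate mice or cultures, so the p-values measure only the spread between libraries.

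These receptors are assembled from subunits, and several subunits are shared. IL-12 is sensed by the products of Il12rb1 and Il12rb2, the first of which also serves IL-23. IL-27 is sensed by Il27ra together with gp130, the product of Il6st, which also transmits IL-6, LIF and oncostatin M signals. These 4 proteins are class I cytokine receptors. The class II receptors comprise Il10ra, which pairs with Il10rb, Ifnar1, which pairs with Ifnar2 to sense type I interferon, and Ifngr1 with Ifngr2, which sense IFN-γ. Class I and class II receptors carry no kinase of their own and signal through bound JAK kinases and STAT factors. Il18r1 belongs to the IL-1 receptor family and signals through MyD88 and IRAK kinases, whereas Tgfbr2 is itself a serine/threonine kinase that recruits Tgfbr1 and acts on SMAD proteins. In CD4+ T cells, IL-12 and IFN-γ are known to favor the Th1 fate, IL-6 the Th17 and follicular helper fates, and TGF-β the regulatory fate.

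The deposited values were fractional and were treated as FPKM. FPKM correct for the length of the transcript and the size of the library, so on this reading levels can be compared between genes. The FPKM summed to between 260058 and 276622 per library. The number of reads is unknown, and the precision that depth gives is therefore not stated. Differences were tested with limma on log2(FPKM + 1) over 8816 genes, those whose mean reached 1 FPKM, with Benjamini-Hochberg adjustment over all of them and an adjusted p under 0.05 taken as a call. Fold changes on this scale understate the change of low genes. All genes tested had a median log2 fold change of -0.15, so that changes are also given relative to it. The 8 listed markers of CD4+ T cells summed to 515 to 555 FPKM with anti–VEGF-B and 514 to 578 with IgG. Within this sum, Cd3e and Cd5 were called lower (log2 fold changes -0.51 and -0.38, limma adjusted p = 0.0197 and 0.0343), and the others were not called. The 2 CD8 genes summed to at most 4.69 FPKM and the B cell gene Cd79b to at most 1.34. Of 6 markers of dendritic cells, 3 had values, which summed to 191 to 202 FPKM with anti–VEGF-B and 164 to 185 with IgG. H2-Ab1 among them was called higher (log2 fold change 0.26, limma adjusted p = 0.0209). The defining markers Itgax, Flt3 and Xcr1 were not among the genes of the table. The 4 myeloid genes with values summed to 11.4 to 12.9 FPKM with anti–VEGF-B and 12.8 to 28.8 with IgG, where Lyz2 alone was at 16.4 in replicate 3, and the 2 NK cell genes to at most 0.645. The part of these markers in the results was not tested. In such bulk libraries, fewer cells of a type and less RNA per cell cannot be told apart.

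Of the 10 receptor genes, 9 passed the filter on low values, and 4 of them were lower with anti–VEGF-B, against 23.8% of all genes tested. These were Il10ra, Il27ra, Il12rb1 and Ifnar1. None was higher, against 4.87% of all genes, although Ifngr2 and Tgfbr2 were called higher after median centring, and none had a positive log2 fold change with an unadjusted p under 0.05 in limma. The 9 genes had a median log2 fold change of -0.20, beside -0.15 for all genes. The values of the groups did not overlap for 5 of the 9, against 49.0% of all genes. In the receptors for IL-12, IL-27 and type I interferon, 1 subunit was lower while the other was not called.

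**Figure D1:**
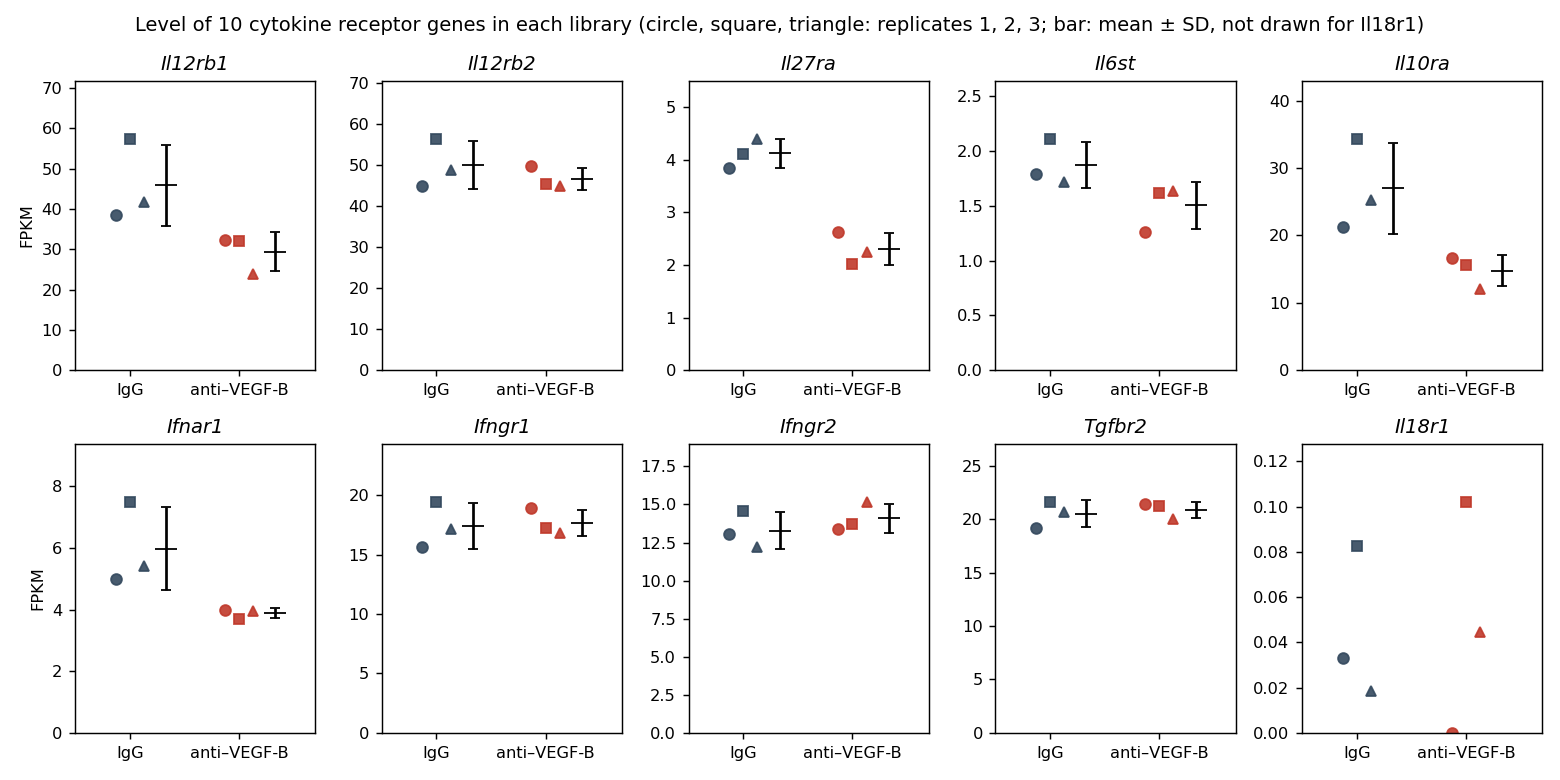
FPKM of each receptor gene in each library, with IgG (dark) and anti–VEGF-B (red) on the horizontal axis and 1 point per library. The bar gives the mean and SD of 3 libraries and is not drawn for Il18r1. For Il12rb1, Il27ra, Il6st, Il10ra and Ifnar1 all anti–VEGF-B points lie under all IgG points, whereas the points overlap for the other 5 genes.

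The receptors spanned a wide range of levels. Il12rb2 and Il12rb1 were the most abundant with IgG, at 50.0 ± 5.86 and 45.9 ± 10.1 FPKM (SD, n = 3), and their libraries overlapped. Il10ra, Tgfbr2 and Ifngr1 followed at 27.0 ± 6.68, 20.5 ± 1.25 and 17.4 ± 1.93 FPKM, each overlapping with the next. Ifngr2 (13.3 ± 1.204), Ifnar1 (5.97 ± 1.34), Il27ra (4.12 ± 0.273) and Il6st (1.87 ± 0.210) came next, and each of these lay apart from its neighbors in this order. With anti–VEGF-B the order was the same except that Il10ra moved from rank 3 to rank 5, under Tgfbr2 and Ifngr1. In these libraries Il12rb1 lay apart from and under Il12rb2, and only Il10ra and Ifngr2 overlapped with their neighbor.

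The 2 subunits of the IL-12 receptor behaved differently. Il12rb1 (chromosome 8 of GRCm38, 70808449 to 70821424), which encodes the β1 subunit, had 38.5, 57.4 and 41.8 FPKM under IgG and 32.3, 32.0 and 24.0 under anti–VEGF-B. All anti–VEGF-B libraries were under all IgG libraries, with IgG replicate 2 the highest and anti–VEGF-B replicate 3 the lowest. The log2 fold change was -0.62 (SE 0.159, limma adjusted p = 0.0222), or -0.46 relative to all genes. The call was lost without anti–VEGF-B replicate 3 (log2 fold change -0.48, adjusted p = 0.0714), without IgG replicate 2 (-0.45, adjusted p = 0.0560), after median centring (-0.41, adjusted p = 0.0509) and with no moderation of the variance, and the alternatives gave an adjusted p between 0.0164 and 0.135. Il12rb2 (chromosome 6, 67291318 to 67376188), the β2 subunit, which carries the signal of the receptor to STAT4, had 44.8, 56.4 and 48.8 FPKM under IgG and 49.8, 45.3 and 45.0 under anti–VEGF-B. These groups overlapped. Its log2 fold change of -0.093 had a 95% interval from -0.31 to 0.12 (limma adjusted p = 0.472).

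The balance of both subunits is shown by their ratio in each library. There was 1.17, 0.983 and 1.17 times as much Il12rb2 as Il12rb1 with IgG and 1.54, 1.42 and 1.88 times as much with anti–VEGF-B. The groups did not overlap. On the log2 scale of FPKM + 1 the ratio was higher by 0.52 with anti–VEGF-B (p = 0.1 in a two-sided exact permutation test, the lowest value possible for 3 libraries a group, and 0.133 adjusted over 8 pairs).

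Il27ra (chromosome 8, 84030294 to 84042589), the ligand-specific subunit for IL-27, had 3.85, 4.11 and 4.39 FPKM under IgG and 2.62, 2.02 and 2.25 under anti–VEGF-B, a mean of 55.8% of the IgG level. The groups lay well apart, with little spread inside either. The log2 fold change was -0.64 (SE 0.108, limma adjusted p = 0.00714), or -0.48 relative to all genes. It was called under each scaling run and without each library in turn, and lost the call only with no moderation of the variance (adjusted p = 0.0696, against 0.00676 to 0.0696 over the alternatives). In the RefSeq annotation of GRCm38 the locus overlaps Palm3, which was not among the genes of the table, and whether the counting used strand is not stated. Il6st (chromosome 13, 112464070 to 112510086), the shared gp130 subunit, was low, at 1.79, 2.11 and 1.72 FPKM under IgG and 1.26, 1.62 and 1.64 under anti–VEGF-B. The groups did not overlap but lay close. Its log2 fold change of -0.20 (95% interval -0.45 to 0.050, limma adjusted p = 0.194) was above 0 after quantile normalization, median centring and cyclic loess.

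Il6ra, the ligand-binding subunit that joins gp130 to sense IL-6, had 2.51, 3.38 and 2.79 FPKM under IgG and 1.32, 1.55 and 1.38 under anti–VEGF-B. It fell with a log2 fold change of -0.68 (limma adjusted p = 0.00711). The ratio of Il6ra to Il6st was 1.40, 1.60 and 1.62 with IgG and 1.05, 0.962 and 0.841 with anti–VEGF-B, with no overlap (log2 difference -0.48, exact permutation p = 0.1). For Il27ra to Il6st the ratio was 2.15, 1.94 and 2.56 with IgG and 2.08, 1.25 and 1.37 with anti–VEGF-B. These plain ratios overlapped through anti–VEGF-B replicate 1, although they did not on log2 of FPKM + 1 (difference -0.44, exact permutation p = 0.1).

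Il10ra (chromosome 9, 45253837 to 45269149), the ligand-binding subunit for IL-10, showed the largest fall of the 9 genes, except without IgG replicate 2. It had 21.3, 34.3 and 25.3 FPKM under IgG and 16.6, 15.7 and 12.1 under anti–VEGF-B, a mean of 54.9% of the IgG level. All anti–VEGF-B libraries were under all IgG libraries. The log2 fold change was -0.81 (SE 0.169, limma adjusted p = 0.0120), or -0.66 relative to all genes. It was called under each scaling and without each library in turn, with a log2 fold change from -0.96 to -0.61 over the alternatives, but not with no moderation (adjusted p = 0.104, against 0.00875 to 0.104). Without IgG replicate 2, in which Il10ra was highest, it was -0.63 and that of Il27ra -0.64. Its partner Il10rb, shared with other cytokines of the IL-10 family, had 2.89, 3.83 and 2.91 FPKM under IgG and 2.62, 2.00 and 2.03 under anti–VEGF-B. Its log2 fold change of -0.39 was just under the threshold (limma adjusted p = 0.0486). Il10rb was called in only 1 of the 6 fits that left out a library (0.0468 without anti–VEGF-B replicate 1, and 0.0514 to 0.148 without the others), and under none of the 4 other scalings. The ratio of Il10ra to Il10rb was 7.37, 8.97 and 8.68 with IgG and 6.34, 7.82 and 5.98 with anti–VEGF-B, so that the plain ratios overlapped.

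The type I receptor gene Ifnar1 (chromosome 16, 91485238 to 91507441) had 4.99, 7.50 and 5.43 FPKM under IgG and 3.999, 3.69 and 3.95 under anti–VEGF-B. The groups did not overlap, and IgG replicate 2 was the highest. The log2 fold change was -0.50 (SE 0.135, limma adjusted p = 0.0259). This fall held under fewer alternatives than those of Il10ra and Il27ra. It was not called after quantile normalization (-0.29, adjusted p = 0.0852), median centring (-0.30, 0.0698) or cyclic loess (-0.29, 0.0839), nor with no moderation or without anti–VEGF-B replicate 1 (0.0575), 2 (0.0694) or 3 (0.0700), against 0.0192 to 0.115 over the alternatives. Without IgG replicate 2 its log2 fold change was -0.35 (limma adjusted p = 0.0470). Its partner Ifnar2 had 7.85, 8.24 and 7.73 FPKM under IgG and 7.84, 8.57 and 6.74 under anti–VEGF-B (log2 fold change -0.041, limma adjusted p = 0.775). The ratio of Ifnar1 to Ifnar2 was 0.636, 0.911 and 0.702 with IgG and 0.510, 0.431 and 0.586 with anti–VEGF-B, with no overlap (log2 difference -0.46, exact permutation p = 0.1).

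Neither subunit of the IFN-γ receptor passed the test. Ifngr1 (chromosome 10, 19591949 to 19610229), the ligand-binding subunit, had 15.6, 19.5 and 17.1 FPKM under IgG and 18.9, 17.2 and 16.8 under anti–VEGF-B. Ifngr2 (chromosome 16, 91547072 to 91565169), which completes the signaling complex, had 13.1, 14.6 and 12.2 FPKM under IgG and 13.4, 13.7 and 15.2 under anti–VEGF-B. The groups overlapped for both genes. The log2 fold changes were 0.022 (95% interval -0.20 to 0.24, limma adjusted p = 0.876) for Ifngr1 and 0.081 (-0.13 to 0.29, limma adjusted p = 0.526) for Ifngr2. After median centring, which moved the median of all genes to 0.049, Ifngr2 was at 0.28 (limma adjusted p = 0.0443, the lowest over the alternatives, which reached 0.873). The ratio of Ifngr2 to Ifngr1 overlapped (exact permutation p = 0.7).

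Of these genes, 4 lie in 1 cluster of 192 kb on chromosome 16, all on the plus strand, in the order Ifnar2, Il10rb, Ifnar1 and Ifngr2. Their changes did not follow this order. The log2 fold changes along the cluster were -0.041, -0.39, -0.50 and 0.081, so the fallen genes stood between a pair that did not pass the test.

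Tgfbr2 (chromosome 9, 116084293 to 116175360), the receptor that binds TGF-β first, had 19.2, 21.6 and 20.7 FPKM under IgG and 21.4, 21.2 and 20.0 under anti–VEGF-B. The groups overlapped, and the log2 fold change of 0.026 had a 95% interval from -0.15 to 0.20 (limma adjusted p = 0.822). After median centring it was 0.23 (limma adjusted p = 0.0460, the lowest over the alternatives, which reached 0.953). Tgfbr1, the kinase it recruits, had 5.99, 6.23 and 6.32 FPKM under IgG and 4.72, 4.96 and 4.80 under anti–VEGF-B (log2 fold change -0.30, limma adjusted p = 0.0326). Of the fits that left out a library, Tgfbr1 was called only in that without IgG replicate 1 (0.0447, against 0.0622 to 0.102 without each other library), and it was called under none of the 4 other scalings. There was 3.20, 3.47 and 3.27 times as much Tgfbr2 as Tgfbr1 with IgG and 4.53, 4.28 and 4.16 times with anti–VEGF-B. The groups did not overlap (log2 difference 0.33, exact permutation p = 0.1). Il18r1 (chromosome 1, 40465552 to 40500854) was very low, at 0.0333, 0.0825 and 0.0185 FPKM under IgG and at 0, 0.102 and 0.0447 under anti–VEGF-B. Il18rap, its partner, was between 0 and 0.0599 FPKM. Both genes were under the filter and no difference could be read at these levels.

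Over the 8 receptor pairs, the log2 ratio of FPKM + 1 did not overlap between groups for 6, against 43.4% of all pairs of genes tested. For the plain ratio of FPKM this held for 4 of the 7 pairs with a ratio in every library. These were Il12rb2 to Il12rb1, Il6ra to Il6st, Ifnar1 to Ifnar2 and Tgfbr2 to Tgfbr1. The share of all pairs of genes was not computed for the plain ratio, so this count has no background beside it. With 3 libraries against 3, no single ratio could pass a threshold of 0.05.

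**Figure D2:**
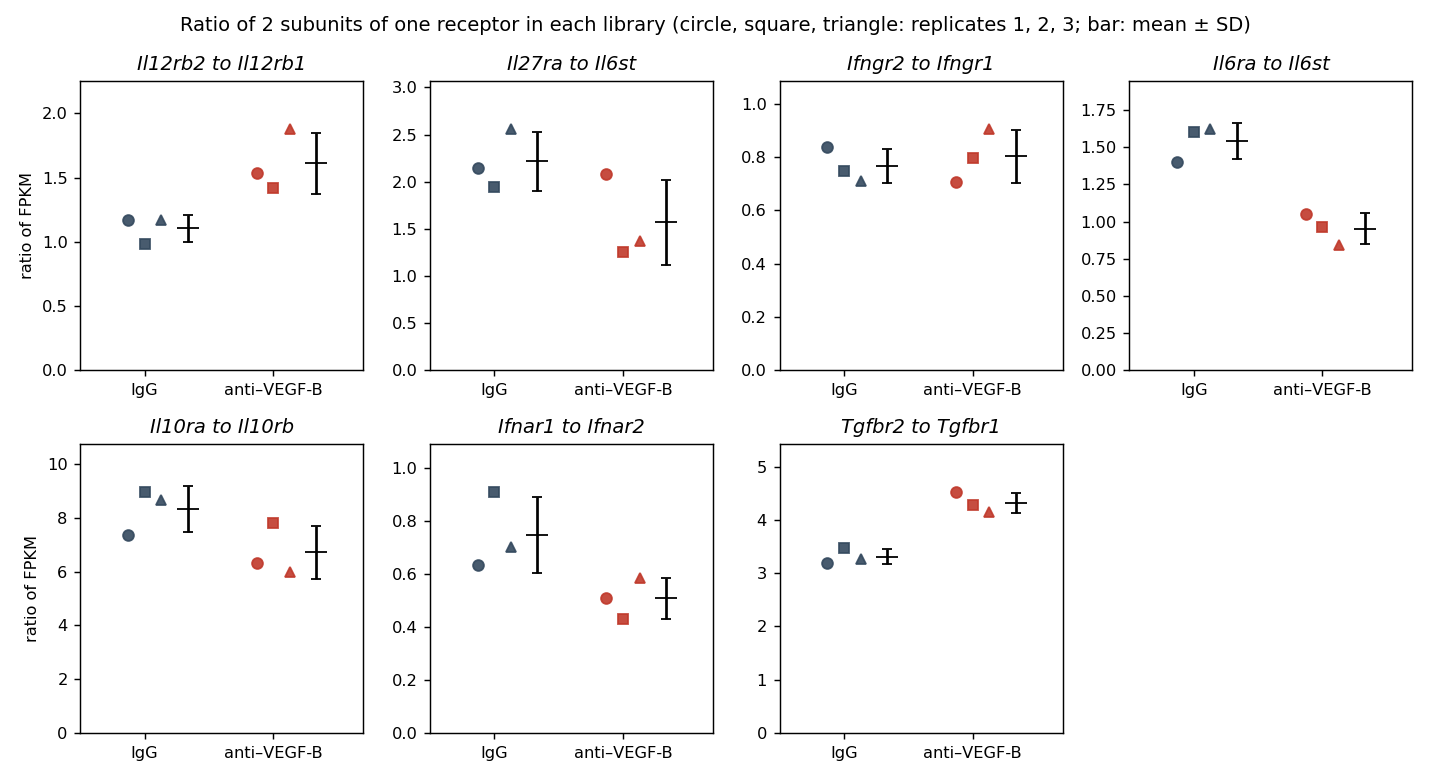
Ratio of the FPKM of 2 subunits of a receptor in each library, with IgG (dark) and anti–VEGF-B (red) and the mean and SD of 3 libraries. The ratio of Il12rb2 to Il12rb1 was 1.11 ± 0.106 with IgG and 1.61 ± 0.238 with anti–VEGF-B, and that of Tgfbr2 to Tgfbr1 was 3.31 ± 0.141 and 4.32 ± 0.188, while Ifngr2 to Ifngr1 overlapped.

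The 9 genes also shared a spread among the libraries within each group. IgG replicate 2 was the highest IgG library for 8 of the 9 genes, Il27ra being the exception, against 59.3% of all genes tested. Without this library 3 of the 9 were lower, namely Il10ra, Il27ra and Ifnar1, while the count over all genes tested went from 2099 to 1073. Within the anti–VEGF-B group, replicate 1 was the highest for 7 of the 9, against 37.5% of all genes. Replicate 2 was the highest for 0 of the 9, against 41.1%. Anti–VEGF-B replicate 3 was the lowest of its group for 5 of the 9, against 45.0% of all genes. Without it only Il10ra and Il27ra of the 9 were lower, and 702 of all genes.

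**Figure D3:**
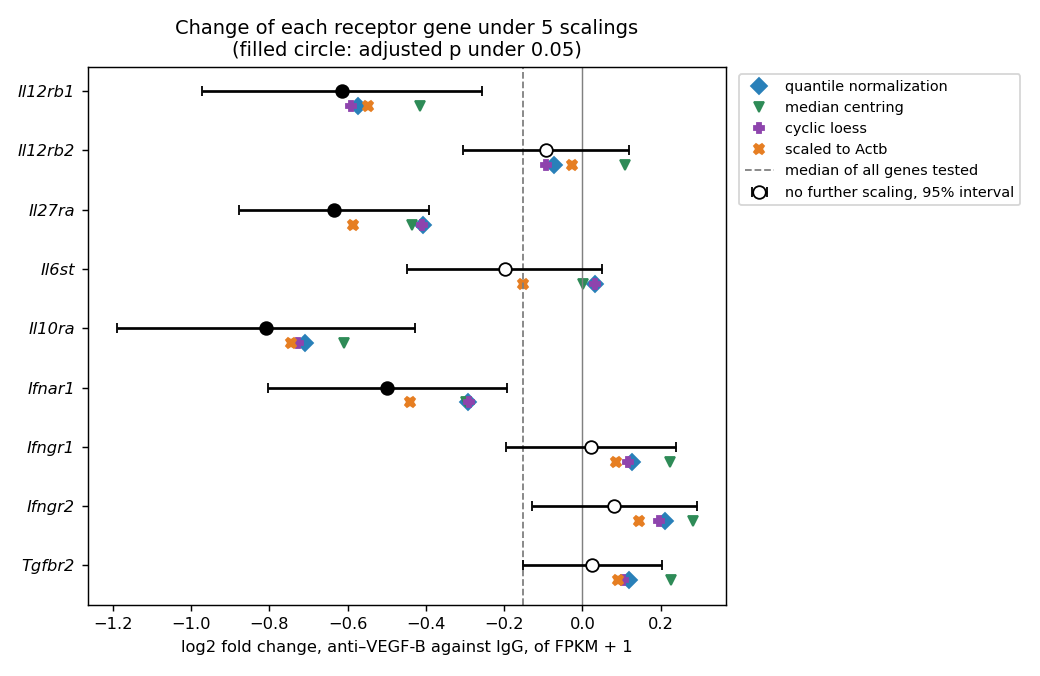
Log2 fold change of each receptor gene, anti–VEGF-B against IgG, on the log2(FPKM + 1) scale, with its 95% interval (circles, filled at an adjusted p under 0.05) and the value after 4 other scalings between libraries (colored symbols); the dashed line is the median of all genes at -0.15. Il10ra, Il27ra, Il12rb1 and Ifnar1 lie left of this line under every scaling drawn, whereas Il6st and Il12rb2 change sign with the scaling. The line applies to the fit with no further scaling. Under the 4 other scalings the median of all genes was between -0.096 and 0.049.

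The gene whose fall had the lowest p was Il27ra. The tested genes with the pattern most like it over the 6 libraries were Ythdc2, Mier3 and Ppp4r3a (Pearson's r of 0.995, 0.994 and 0.993). The points are 6 libraries of 2 groups, and they share the difference between the groups. Mier3 and Ppp4r3a were called lower (log2 fold changes -0.50 and -0.28), whereas Ythdc2 was not (-0.21).

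Other genes of the same pathways were taken from a list of 83 ligands, partner subunits, kinases, factors, inhibitors and targets. Of the 60 that were tested, 21 were lower (against 23.8% of all genes) and 2 higher (against 4.87%), and the median log2 fold change was -0.17, beside -0.15 for all genes. The count of lower genes in the list was 8 without anti–VEGF-B replicate 3. A set of 8 genes was called lower under all 4 other scalings and without each library in turn. How many of all genes tested met both conditions was not counted. The 8 genes included the ligands Lif and Osm, the subunit Il6ra, the adaptor Myd88, the inhibitors Socs1 and Socs2, and the target Pim1.

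Among the ligands, 4 of 7 tested were lower (against 23.8% of all genes). Lif, which signals through gp130, had 9.67, 16.3 and 10.1 FPKM under IgG and 4.10, 4.07 and 3.55 under anti–VEGF-B (log2 fold change -1.37, limma adjusted p = 0.00469). Osm, oncostatin M, which also signals through gp130, had 3.09, 6.48 and 3.93 FPKM under IgG and 1.41, 0.886 and 1.27 under anti–VEGF-B (-1.29, adjusted p = 0.00634). For both genes the anti–VEGF-B libraries lay far under the IgG libraries. Ebi3, a subunit of IL-27, fell from 27.4 ± 1.15 to 22.0 ± 0.417 FPKM (-0.30, limma adjusted p = 0.0171), but was at -0.10 after median centring and not called without anti–VEGF-B replicate 3 (0.0656, against 0.0167 to 0.309 over the alternatives). Il10 fell from 3.96 ± 1.02 to 2.48 ± 0.338 FPKM (-0.50, limma adjusted p = 0.0414), was called under none of the other scalings, and of the fits without 1 library only without IgG replicate 1 (0.0154, against 0.0619 to 0.137 without the others). Ifng was low, at 1.34 ± 0.583 FPKM under IgG and 1.02 ± 0.127 under anti–VEGF-B, and its groups overlapped.

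Among the kinases and factors, Tyk2, the JAK kinase that binds Ifnar1, Il12rb1 and Il10rb, had 2.46, 4.17 and 2.38 FPKM under IgG and 1.66, 1.70 and 1.40 under anti–VEGF-B. Its log2 fold change was -0.60 (limma adjusted p = 0.0259). It was not called without anti–VEGF-B replicate 1 (0.0568), 2 (0.0519) or 3 (0.0849), nor after quantile normalization, median centring or cyclic loess (0.0531 to 0.0834, against 0.0219 to 0.127 over the alternatives). Jak1, Jak2 and Jak3 were not called. Jak1 was at 0.14 and was called higher after median centring (0.34, limma adjusted p = 0.0158, against up to 0.350 over the alternatives). Irf9, a factor of type I interferon signaling, fell from 8.27 ± 1.39 to 5.17 ± 0.503 FPKM (-0.58, limma adjusted p = 0.0130), though not without anti–VEGF-B replicate 3 (0.0515, against 0.0105 to 0.0870 over the alternatives). Stat3 and Stat4, the factors of IL-6 and IL-12 signaling, were at 0.16 and 0.12 and not called, although Stat3 was called higher after median centring (0.36, limma adjusted p = 0.0202, against up to 0.360 over the alternatives). The 3 SMAD genes tested, Smad2, Smad3 and Smad4, were at 0.19, 0.19 and 0.16 and not called, although all 3 were called higher after median centring (0.39, 0.39 and 0.36, with limma adjusted p of 0.0328, 0.0157 and 0.0209). Smad2 was also called higher after quantile normalization (0.36, limma adjusted p = 0.0493) and cyclic loess (0.35, 0.0473), against 0.0328 to 0.334 over its alternatives. The adjusted p ran from 0.0157 to 0.337 for Smad3 and from 0.0209 to 0.327 for Smad4.

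**Figure D4:**
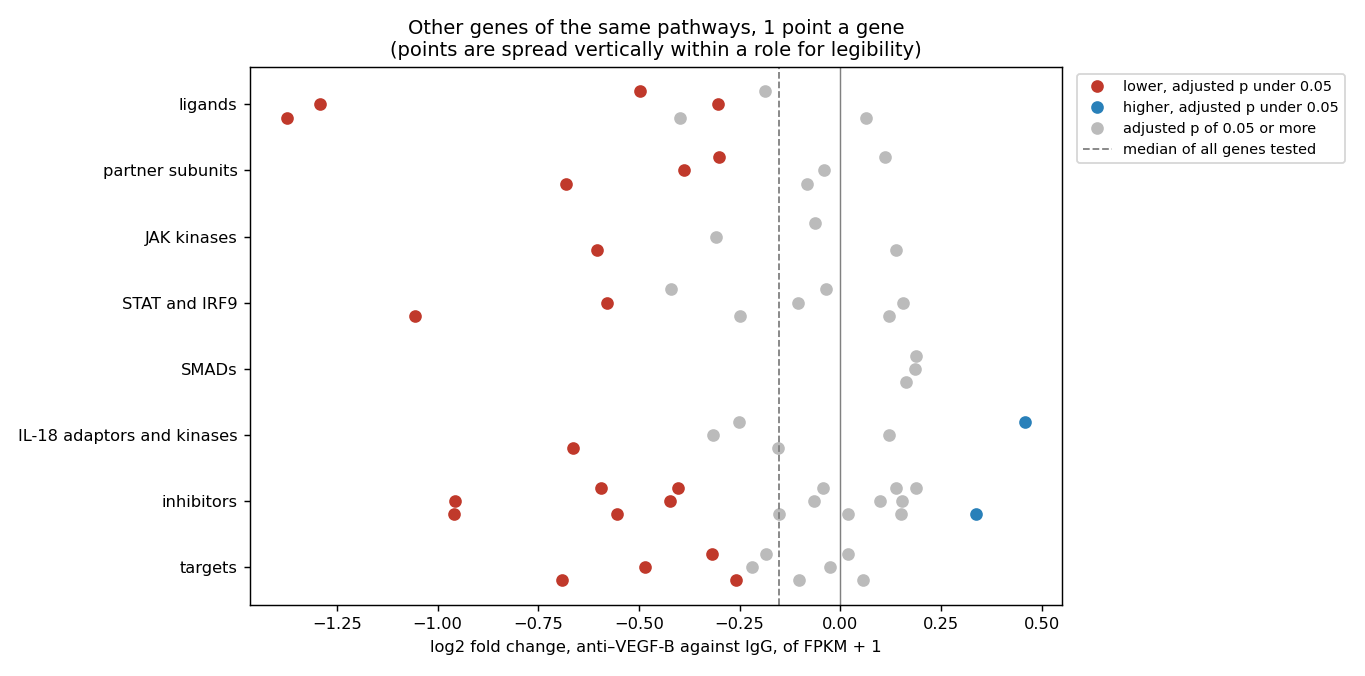
Log2 fold change of anti–VEGF-B against IgG, on the log2(FPKM + 1) scale, of the 60 other pathway genes tested, by role, with 1 point per gene; red points were lower and blue points higher at an adjusted p under 0.05, and the dashed line is the median of all genes. Calls of lower genes appear in every role but the SMADs, and the largest fall is that of Lif at -1.37.

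Among the inhibitors, 6 of 16 tested were lower (against 23.8% of all genes) and 1 higher (against 4.87%). Socs1, which restrains JAK kinases at the interferon receptors, fell from 28.8 ± 6.46 to 14.2 ± 2.39 FPKM (a log2 change of -0.96, limma adjusted p = 0.00714). Socs2 fell from 3.20 ± 0.975 to 1.13 ± 0.159 FPKM (-0.96, adjusted p = 0.00685). Socs3, the inhibitor that binds gp130, fell from 33.1 ± 6.31 to 22.0 ± 1.74 FPKM (-0.55, adjusted p = 0.0152), and was not called without anti–VEGF-B replicate 3 (0.0566, against 0.0118 to 0.107 over the alternatives). The phosphatase gene Ptpn6 fell from 52.8 ± 4.76 to 39.6 ± 2.71 FPKM (-0.40, limma adjusted p = 0.0136). Ptpn11, also a phosphatase gene, fell from 5.26 ± 1.13 to 3.11 ± 0.162 FPKM (-0.59, limma adjusted p = 0.0141). Neither was called without anti–VEGF-B replicate 3 (0.0549 and 0.0515), nor was Ptpn6 after median centring (0.0963). In the other direction, Ptpn2, a phosphatase of JAK and STAT proteins, rose from 70.8 ± 8.19 to 89.2 ± 3.62 FPKM (0.34, adjusted p = 0.0273). It was called under all 4 other scalings but, without 1 library, only without IgG replicate 1 (0.0196) or 3 (0.0483) and not in the other 4 fits (0.0510 to 0.0939, against 0.0187 to 0.111 over the alternatives). Tab2, an adaptor of the IL-18 pathway, was the other gene that rose, from 35.7 ± 1.09 to 49.5 ± 4.58 FPKM (0.46, limma adjusted p = 0.00860), while Myd88 fell from 7.46 ± 0.933 to 4.32 ± 0.0976 FPKM (-0.66, adjusted p = 0.00634).

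Among 10 targets tested, 4 were lower (against 23.8% of all genes). Pim1, a kinase gene induced by STAT factors, fell from 164 ± 16.4 to 102 ± 10.1 FPKM (a log2 change of -0.69, limma adjusted p = 0.00491). Gbp2, which IFN-γ induces, was at 302 ± 6.96 FPKM under IgG and 315 ± 24.3 under anti–VEGF-B, and Tbx21, the Th1 factor, at 14.5 ± 2.75 and 14.1 ± 0.814. The groups of both genes overlapped. For comparison, 7 receptor genes of the common γ chain group, which sense IL-2, IL-4, IL-7, IL-15 and IL-21, had 4 lower (against 23.8% of all genes), with a median log2 fold change of -0.32, beside -0.15 for all genes. Whether this differs from the 9 genes described here was not tested.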

How the data were processed

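RNA of CD4+ T cells was measured in 3 anti–VEGF-B and 3 IgG libraries. The authors aligned reads to GRCm38 with hisat2, used StringTie and Ballgown, and deposited 1 table for protein-coding genes. Although it is named as raw data, the deposited values are fractional and were treated as FPKM and not fitted with a count model. No normalization between libraries is stated. Among genes under 0.3 FPKM at most 1.37% shared a ratio between libraries, and reads were not recovered. Columns were matched to samples by their labels.

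R 4.3.3 and limma 3.58.1 (empirical Bayes with trend, no covariate) were fitted to log2(FPKM + 1) for 8816 genes (mean FPKM of 1 or more over all libraries) and tested on simulated data. Ratios of 8 subunit pairs were compared with two-sided exact permutation tests. The genes and lists were chosen with earlier results of these data known. Genes named were all 10 receptors, their partners, pathway genes called (up to 6 of lowest p per role) and the 3 genes most like the receptor of lowest p. Pathway genes named without a call were chosen after their values were seen. A result that the rule would name is not reported here. Alternatives changed the scaling, filter, pseudocount, moderation, block, threshold and libraries.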

Additional observations from a re-analysis of the deposited data

How the results depend on the processing

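Against 4 lower and 0 higher receptor genes, median centring gave 2 and 2, and a filter at a mean of 5 FPKM, which leaves out Il27ra, Ifnar1 and Il6st, gave 2 lower. No moderation gave 0 lower, with 4 lower and 0 higher at an unadjusted p under 0.05. The fits without 1 library gave 2 to 4 lower. Their median log2 fold change, -0.20, was -0.073 with quantile normalization, 0.0019 with median centring and -0.035 with the filter at 5 FPKM. Against 21 lower and 2 higher pathway genes, median centring gave 11 and 12, quantile normalization 5 higher, cyclic loess 4 higher, the filter at 5 FPKM 13 lower, no moderation 0 and 0 (20 and 4 at an unadjusted p under 0.05), an unadjusted p under 0.05 together with a log2 change of more than 0.5 in size 12 and 0, and the fits without 1 library 8 to 19 lower and 1 to 2 higher. Against 2099 lower and 429 higher genes of all tested, quantile normalization gave 913 and 880, median centring 807 and 1365, cyclic loess 938 and 852, Actb scaling 1309 lower, the filter at 5 FPKM 989 lower, no moderation 6 and 6, the limit on the size of change 998 and 123, and the fits without 1 library 702 (without anti–VEGF-B replicate 3) to 2074 lower and 163 to 395 higher.

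Il6st was at 0.031, 0.0019 and 0.033 with quantile normalization, median centring and cyclic loess, and Il12rb2 at 0.11 with median centring. In the fits without 1 library, Ifngr1 ran from -0.048 to 0.10, Tgfbr2 from -0.020 to 0.064, the log2 ratio difference of Ifngr2 to Ifngr1 from -0.025 to 0.14 and that of Il18r1 to Il18rap from -0.016 to 0.049. The cause of these changes was not tested. Libraries with the same replicate number did not deviate together (correlations of -0.030, 0.11 and 0.089, and not every library correlated best with its own number), so the numbers were not taken as pairs. With the replicate number as a block, 4 receptor genes were lower and 0 higher, and of the pathway genes 24 and 2. Depth is unknown, and nothing can be said of Il18r1 at its level.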
